A study of Mus musculus with 9 samples.

Results

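The proteasome genes of layer IV barrel cortex were examined at postnatal day 5 in mice with and without the growth-cone protein Gap43. Members were the probe sets whose single platform gene symbol began with Psma, Psmb, Psmc, Psmd, Psme, Psmf or Psmg followed by a digit. The rule gave 85 probe sets of 22690 on the array, and 48 genes of 12393 named ones. It did not use any measured value. The 48 genes comprised 15 subunits of the core particle, 17 of the regulatory particle, 3 inducible catalytic subunits, 3 activators, 1 inhibitor and 7 assembly chaperones. The remaining 2, Psmc3ip and Psme3ip1, matched by letters but encode no subunit (a recombination factor and a partner of Psme3).

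The mice, all C57BL/6, were of 3 genotypes: KO, in which both Gap43 alleles are disrupted, HZ, which carry 1 disrupted allele, and WT. Layer IV was cut from the barrel cortex, the somatosensory map of the whiskers, by laser microdissection, and its total RNA went through a repeated cDNA synthesis that amplifies small amounts before hybridisation to an Affymetrix array. Each genotype had 3 mice with 1 array each, 9 arrays in all. The labels do not say which part of Gap43 is missing.

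The proteasome degrades proteins that have been tagged with ubiquitin. Its core particle is a barrel of stacked rings: alpha subunits (Psma genes) form the outer rings and the gate, and beta subunits (Psmb genes) form the inner rings, of which Psmb5, Psmb6 and Psmb7 carry the proteolytic sites. A regulatory particle caps the barrel. Its ATPases (Psmc genes) unfold the substrate and its non-ATPase subunits (Psmd genes) bind and remove ubiquitin. In neurons, proteasomes act in growth cones and at synapses as well as in the cell body. Because the subunits are needed in fixed proportions, their genes are known to be transcribed together, in part through the factor Nfe2l1, which binds antioxidant response elements.

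Promoter sequence is a feature the rule did not use, and the windows below show known motifs in subunits that recur in the results. RefSeq promoters (GRCm38.p6) were found for 40 of the 48 genes, among them 11 core and 14 regulatory subunits. In the 250 bases before the start, on either strand, 4 motifs chosen with the sequences available were searched. A gene counted as matched if any of its promoters held the motif. CCGGAAG, the core of many ETS family sites, was present in 8 of 14 regulatory subunits (57.1%) and 1 of 11 core subunits (9.09%). The share was 15.7% of the 6886 genes kept on the arrays that had a promoter, and 7.83% of all 27025 genes with one. TGACNNNGC, the antioxidant response element, was present in 2 core subunits (18.2%) and 2 regulatory ones (14.3%), against 13.6% of kept genes and 11.5% of all genes. The motif of nuclear respiratory factor 1 was present in 3 core subunits (27.3%) and 3 regulatory ones (21.4%), against 9.63% of kept genes and 4.23% of all genes. CCAAT was present in 6 core subunits (54.5%) and 4 regulatory ones (28.6%), against 40.3% of kept genes and 37.5% of all genes. These are counts of letters, not of bound sites, and were not tested. Each window below is printed in the direction of transcription with the match in capitals, which reads CTTCCGG where the ETS site lies on the opposite strand. The first 5 are regulatory subunits with an ETS site, the next 2 are the catalytic core subunits with an antioxidant response element, and the last is an alpha subunit with a site of nuclear respiratory factor 1.
Psmc1 (chr12:100110149-100110201, plus strand): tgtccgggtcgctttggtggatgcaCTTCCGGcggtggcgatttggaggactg
Psmd2 (chr16:20651601-20651651, plus strand): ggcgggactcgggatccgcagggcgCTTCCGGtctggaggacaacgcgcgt
Psmd4 (chr3:95042708-95042764, minus strand): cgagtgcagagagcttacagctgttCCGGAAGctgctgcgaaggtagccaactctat
Psmd6 (chr14:14120959-14121015, minus strand): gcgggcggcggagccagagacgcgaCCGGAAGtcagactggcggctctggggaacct
Psmd12 (chr11:107479486-107479527, plus strand): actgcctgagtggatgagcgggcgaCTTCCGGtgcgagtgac
Psmb5 (chr14:54618009-54618067, minus strand): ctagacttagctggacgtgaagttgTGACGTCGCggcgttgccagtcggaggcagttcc
Psmb6 (chr11:70525323-70525356, plus strand): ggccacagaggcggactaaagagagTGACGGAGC
Psma2 (chr13:14613090-14613149, plus strand): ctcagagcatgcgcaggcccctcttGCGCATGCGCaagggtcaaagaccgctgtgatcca

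Gap43 itself separated KO from the other genotypes. Its signal was 979, 1930 and 1299 on the KO arrays, 5015, 5039 and 4389 on the HZ arrays, and 7089, 4746 and 4294 on the WT arrays. KO arrays lay below all others, whereas HZ and WT arrays overlapped. The log2 difference was -1.95 between KO and WT (limma adjusted p = 0.01728), -1.82 between KO and HZ (adjusted p = 0.03619) and -0.13 between HZ and WT (adjusted p = 0.9151). Over 22 other settings the Gap43 difference stayed between -2.20 and -1.72 in KO against WT and between -2.08 and -1.59 in KO against HZ, but the adjusted call was lost under 8 and 13 of them, with limma adjusted p up to 0.2042 and 0.2869. Values are log2(signal + 16) throughout, a scale that understates changes of dim probe sets. Each gene was represented by its brightest probe set, and p-values were adjusted over all 13576 probe sets kept. Arrays correlated at 0.958 to 0.978 within a genotype. The log2 ratio of the 3' to the 5' Gapdh control probe sets, a measure of how far the amplified RNA is biased to 3' ends, was 3.99 to 4.11 on KO arrays, 3.52 to 4.80 on HZ arrays and 3.65 to 4.28 on WT arrays, with HZ 2 the highest and WT 2 next. Of 5 layer IV neuron markers, Rorb and Rora were named on the array, and their summed signal was 867 to 1268 on KO arrays, 1432 to 1780 on HZ arrays and 1556 to 1606 on WT arrays. The 8 astrocyte markers on the array, of which 7 were bright enough to be kept, summed to 6067 to 9367 on KO arrays, 10160 to 10580 on HZ arrays and 9767 to 12500 on WT arrays. Without Gja1, a gap junction gene at -1.04 on the log2 scale in KO against WT, the other 7 summed to 4337 to 6840 on KO arrays, 6197 to 6582 on HZ arrays and 5948 to 7909 on WT arrays, with overlap. The 11 microglial markers, of which 4 were kept, summed to 1517 to 1891 on KO arrays, 1688 to 2264 on HZ arrays and 1807 to 3671 on WT arrays, with WT 2 the highest. Neuronal markers, all 7 kept, overlapped between genotypes in their sum, at 19870 to 29650 on KO arrays, 23410 to 27790 on HZ arrays and 24520 to 27460 on WT arrays. Singly, 2 of the 7 were higher in KO than in WT at an unadjusted p below 0.05 (limma), beside 4.41% of all genes. They were led by Tubb3, at 0.33 ± 0.13 (adjusted p = 0.5483, limma). By their estimates 3 of the 7 lay below 0, with 0 lower at that level. Of the 7 kept astrocyte markers, 3, Gja1 among them, were lower in KO than in WT at that level. So were 2 of 2 layer IV markers and 1 of 4 kept microglial markers, Ctss at -0.88, beside 3.75% of all genes. In these lists 6 of 7, 2 of 2 and 4 of 4 lay below 0, with 0 higher at that level. The part of these differences in the proteasome values was not tested. In bulk tissue, fewer cells of a type and less RNA per cell cannot be told apart.

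Of the 85 member probe sets, 69 were bright enough to be tested, standing for 45 genes, or 43 without the 2 that are no subunits. No member differed between KO and WT after adjustment: 0 of 43 passed, with 0.0118% of all 8503 genes passing (Gap43 alone), and the smallest adjusted p of a member was 0.5894 (limma). At an unadjusted p below 0.05, Psmb7 and Psme4 were lower in KO, 2 of 43 against 3.75% of all genes, and 0 members were higher, against 4.41%. Arrays of the 2 genotypes did not overlap for Psmd8 and Psme4, both lower in KO, beside 6.19% of all genes, and for 0 members that were higher, beside 7.79%. The KO value lay below the WT value for 33 of 43 members, beside 46.4% of all genes. The median log2 difference was -0.13 over the members and 0.02 over all genes.

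No member differed between HZ and WT either: 0 of 43 passed, with 0% of all genes passing, and the smallest adjusted p of a member was 0.7895 (limma). Psmd4 was lower in HZ at an unadjusted p below 0.05, 1 of 43 against 1.94% of all genes, and 0 members were higher, against 4.12%. Arrays did not overlap for Psma2, Psmb1, Psmd4 and Psmd14, all lower in HZ, beside 4.3% of all genes, and for 0 members that were higher, beside 9%. The HZ value lay below the WT value for 37 of 43 members, beside 43.3% of all genes, with a median of -0.12 over the members and 0.04 over all genes. Without HZ 2 and WT 2, the arrays with the highest 3'/5' ratios, an exclusion chosen after seeing the data, that count was 24 of 43. The comparisons of KO and of HZ share the WT arrays, so their members' common sign is not independent.

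Between KO and HZ no member was called: 0 of 43 passed against 0.0118% of all genes (Gap43), with a smallest adjusted p of 0.577 (limma). At an unadjusted p below 0.05, Psme1 was higher in KO, 1 of 43 against 3.56% of all genes, and Psmb7 was lower, 1 of 43 against 4.08%. Arrays did not overlap for Psmb3, Psmc2 and Psme1, higher in KO, beside 6.47% of all genes, and for Psme4, lower in KO, beside 8.04%. The KO value lay below the HZ value for 25 of 43 members, beside 54.9% of all genes. This count was 14 without KO 2 and 16 without HZ 1.

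**Figure D1:**
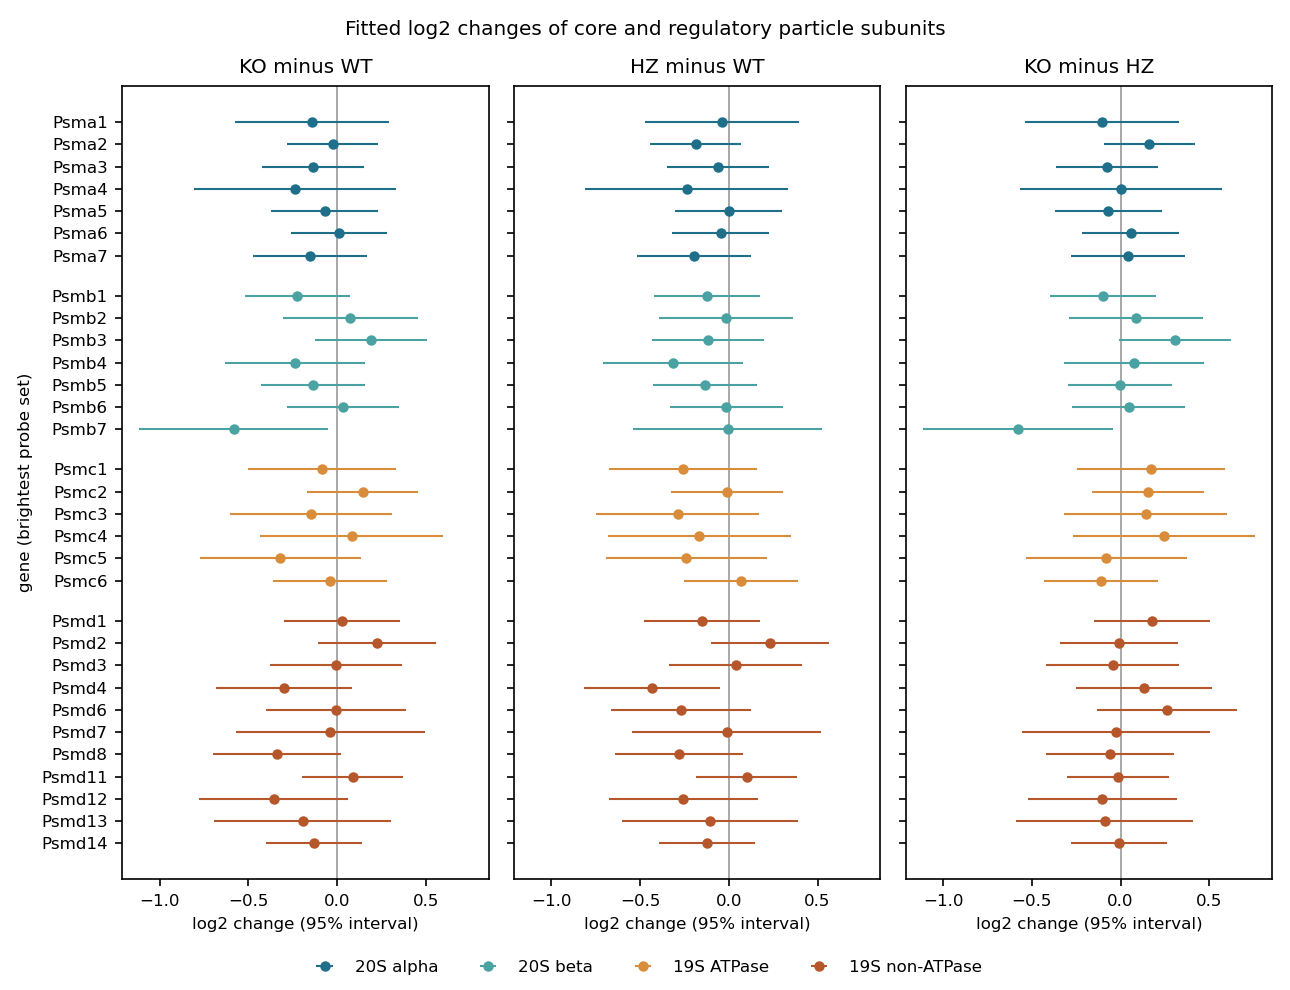
Fitted log2 changes of the 14 core and 17 regulatory subunits kept, 1 row per gene with its brightest probe set, as KO minus WT, HZ minus WT and KO minus HZ. Points are limma estimates from 9 arrays (3 per genotype), bars are 95% confidence intervals not adjusted for multiple tests, and colours mark alpha, beta, ATPase and non-ATPase subunits. All intervals include 0 except those of Psmb7 (KO minus WT and KO minus HZ) and Psmd4 (HZ minus WT).

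The alpha ring showed no separation of KO from WT. By their brightest probe sets, all 7 alpha subunits kept lay between -0.24 and 0.01 in KO against WT, and below 0 in HZ against WT. None passed an unadjusted p of 0.05. Psma2 gave 5033, 5065 and 5922 on KO arrays, 5043, 4530.4 and 4723 on HZ arrays, and 5876, 5267 and 5141 on WT arrays. The HZ arrays were all below the WT arrays while KO overlapped both, and the HZ difference was -0.19 ± 0.12 on the log2 scale (SE, limma adjusted p = 0.8024). Psma7 gave 1759.7, 1978 and 2214 on KO arrays, 2149.8, 1697 and 1926 on HZ arrays, and 2436, 2099.9 and 2079 on WT arrays. All genotypes overlapped, with differences from WT of -0.15 in KO and -0.20 in HZ. Psma4 was the most variable alpha subunit, at 1366, 1853 and 2237 on KO arrays, 2313, 1286 and 1896 on HZ arrays, and 2937, 1524 and 2079 on WT arrays. Its difference from WT was -0.24 ± 0.26 in both KO and HZ, smaller than its SE. Psma3, at -0.08 ± 0.13 in KO against HZ, and Psma1 and Psma5 showed the same overlap. Psma6 was represented by a probe set of the type whose probes can match other transcripts, at 9785, 8736 and 9767 on KO arrays and 7994, 11327 and 9012 on WT arrays, which overlapped. Psma8, the alpha subunit of germ cell proteasomes, was on the array but too dim to be tested, at 15.9 to 52.6 on all 9 arrays.

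By brightest probe sets, the beta subunit Psmb7, the site of trypsin-like activity, had the lowest KO minus WT estimate of any member gene. It gave 824, 1278 and 1663 on KO arrays, 2079, 1396 and 2029.6 on HZ arrays, and 2294, 1634 and 1593 on WT arrays. KO 1 and KO 2 were below every other array, and KO 3 lay within the range of WT. The log2 difference was -0.58 ± 0.25 against WT (SE, limma adjusted p = 0.5894) and -0.58 against HZ (adjusted p = 0.6182), with -0.01 between HZ and WT. Without KO 1 the value was -0.31 in both comparisons with KO. The other catalytic subunits overlapped in every comparison. Psmb5, the site of chymotrypsin-like activity, gave 3145, 3119.7 and 3767 on KO arrays, 3747, 2945 and 3364 on HZ arrays, and 3710.5, 3869.8 and 3433 on WT arrays. Its differences from WT were -0.14 ± 0.14 in KO and in HZ. Psmb6, the site of caspase-like activity, gave 4579, 4109 and 4726 on KO arrays, 4604, 3700.2 and 4729 on HZ arrays, and 3856, 5226 and 4122 on WT arrays. It lay at 0.03 ± 0.15 in KO and -0.01 ± 0.15 in HZ against WT, with 95% intervals of -0.29 to 0.35 and -0.33 to 0.30. The Psmb5 and Psmb6 windows above hold the antioxidant response element.

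The beta subunits without a proteolytic site differed in sign, and none passed an unadjusted p of 0.05 by its brightest probe set. A second probe set of Psmb4 did in KO against HZ, as given below. Psmb3 gave 5231, 4432 and 5006 on KO arrays, 3887, 3916 and 4008 on HZ arrays, and 3457, 5095 and 4433 on WT arrays. KO arrays were all above HZ arrays, by 0.31 ± 0.15 on the log2 scale (adjusted p = 0.6567, limma), and WT arrays spanned both. Psmb3's second probe set also separated KO from HZ, by 0.33. Psmb1 gave 1983, 2199 and 2674 on KO arrays, 2450.3, 2322 and 2522 on HZ arrays, and 2694, 2662 and 2597 on WT arrays, so that HZ lay below WT without overlap. Its difference was -0.12 ± 0.14 in HZ and -0.22 ± 0.14 in KO against WT. Psmb4 gave 4522, 4652 and 5898 on KO arrays, 5878, 3399 and 5290.4 on HZ arrays, and 5897, 5975 and 5789.6 on WT arrays. Its difference from WT was -0.24 ± 0.18 in KO and -0.32 ± 0.18 in HZ. HZ 2 was its lowest array, and the HZ value was -0.08 without it. Psmb2 overlapped throughout, at 0.07 in KO and -0.01 in HZ against WT.

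The inducible subunits replace the catalytic ones in immunoproteasomes, which interferon raises in immune cells. Psmb10 was the only one bright enough to test, at 707, 628 and 609.7 on KO arrays, 687, 525 and 765 on HZ arrays, and 726, 816 and 695 on WT arrays. It overlapped between genotypes, with differences from WT of -0.20 ± 0.17 in KO and -0.19 ± 0.17 in HZ. Psmb8 was at 6.83 to 22.6 and Psmb9 at 18.7 to 93.6 over the 9 arrays, too dim to be kept. The lowest mean signal of a kept probe set was 118. The summed microglial markers given above overlapped between KO and WT, and their part in Psmb10 was not tested.

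**Figure D2:**
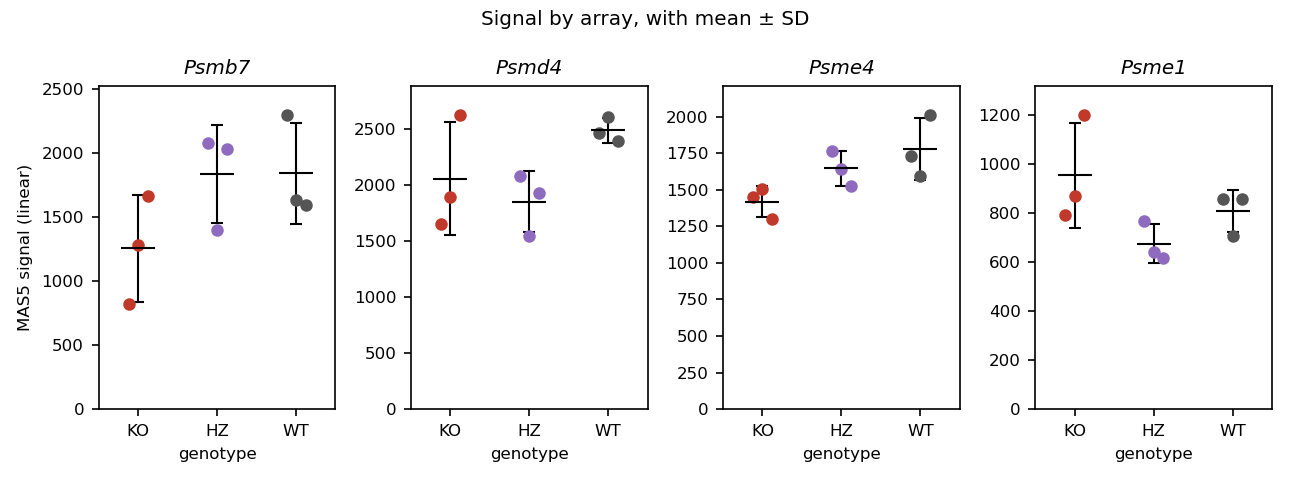
MAS5 signal (linear, scaled by the authors) of Psmb7, Psmd4, Psme4 and Psme1, by genotype. These are the members whose brightest probe set had an unadjusted p below 0.05 in a comparison. Coloured points are single arrays, the wide dash is the mean and the bar is the SD (n = 3). KO 1 and KO 2 lie below all other arrays for Psmb7, HZ below WT for Psmd4, KO below HZ and WT for Psme4, by narrow gaps, and KO above HZ for Psme1.

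The ATPase ring of the regulatory particle had its widest differences in Psmc5 and Psmc3. Psmc5, a dim probe set, gave 318, 231 and 266 on KO arrays, 349.6, 280.1 and 237 on HZ arrays, and 444, 291 and 303 on WT arrays. The genotypes overlapped, at -0.32 ± 0.21 in KO against WT (adjusted p = 0.7415, limma). Psmc3 gave 3589.6, 2874 and 3995 on KO arrays, 4252, 2153 and 3349 on HZ arrays, and 3686, 4193 and 3629 on WT arrays. HZ 2 was the lowest array, and the HZ difference of -0.29 ± 0.21 turned to 0.05 without HZ 2 and WT 2. Psmc1, with the ETS window above, gave 1258, 1313 and 1621 on KO arrays, 1582, 922 and 1278 on HZ arrays, and 1337, 1589 and 1507 on WT arrays. HZ 2 was again lowest, and the KO minus HZ difference of 0.17 ± 0.19 turned to -0.03 without it. Psmc2 gave 9631, 9805 and 10406 on KO arrays, 9088, 8893 and 8839 on HZ arrays, and 7399, 11808 and 8347 on WT arrays. KO was above HZ without overlap, by 0.15 ± 0.15, and WT spanned both. This probe set is of the type whose probes can match other transcripts. On Psmc2's other probe set KO and HZ overlapped, at 0.15 ± 0.20. Psmc4 gave 2634, 2364 and 1793 on KO arrays, 1589, 2799.7 and 1497 on HZ arrays, and 1789, 2642 and 1994 on WT arrays. HZ 2 was the highest array of this probe set, unlike Psmc1 and Psmc3, but the lowest of Psmc4's second probe set, at 944. Psmc6 overlapped in all comparisons, at -0.04 in KO and 0.07 in HZ against WT.

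Among the non-ATPase subunits, Psmd4, a receptor for ubiquitin chains, had the lowest HZ minus WT estimate. It gave 1657, 1896 and 2626 on KO arrays, 2079, 1549 and 1935 on HZ arrays, and 2464, 2615 and 2393 on WT arrays. All HZ arrays and KO 1 and KO 2 were below WT, and KO 3 was just above it. The log2 difference from WT was -0.43 ± 0.18 in HZ (adjusted p = 0.7895, limma) and -0.30 ± 0.18 in KO. Psmd2, a scaffold that docks ubiquitin-like domains, had estimates of the other sign, at 4674, 3611 and 4549.6 on KO arrays, 5165, 3563 and 4253 on HZ arrays, and 3742, 3708 and 3469 on WT arrays. Its difference from WT was 0.22 ± 0.15 in KO and 0.23 ± 0.15 in HZ, with overlap through KO 2 and HZ 2. Both promoters hold an ETS site, as printed above. Psmd14, the deubiquitinase that releases the chain, gave 5827, 5117 and 6853 on KO arrays, 6110.4, 5837 and 5847 on HZ arrays, and 6245, 7004 and 6154 on WT arrays. HZ was below WT without overlap, by a log2 difference of -0.12 ± 0.13, about the size of its SE.

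Of the other non-ATPase subunits, many of which form the lid around the deubiquitinase, none passed an unadjusted p of 0.05. Psmd8 gave 759, 683 and 821 on KO arrays, 913, 660.2 and 804 on HZ arrays, and 947, 1074 and 862 on WT arrays. KO lay below WT without overlap, by -0.34 ± 0.17 on the log2 scale (adjusted p = 0.6466, limma), and the HZ difference was -0.28 ± 0.17. Psmd12 gave 1206, 1348 and 1689.6 on KO arrays, 1906, 1138 and 1569 on HZ arrays, and 1945, 1653 and 1814 on WT arrays. It overlapped, at -0.36 ± 0.19 in KO and -0.26 ± 0.19 in HZ. Psmd6 gave 2746, 2577 and 1886 on KO arrays, 2277, 2084 and 1623 on HZ arrays, and 2567, 2032 and 2602 on WT arrays, at 0.26 ± 0.18 in KO against HZ and -0.27 ± 0.18 in HZ against WT. Psmd1, the other large scaffold, lay at 0.18 ± 0.15 in KO against HZ with overlap. The brightest probe sets of Psmd3, Psmd7, Psmd11 and Psmd13 also overlapped in every comparison, with values from -0.19 to 0.10 against WT.

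The activators differed from each other. Psme4, a nuclear cap that opens the core without ATP, gave 1452, 1506 and 1301 on KO arrays, 1769, 1645 and 1525 on HZ arrays, and 1735, 1593 and 2009.5 on WT arrays. KO lay below both other genotypes without overlap, by gaps that were small beside the spread within HZ and WT. The log2 difference was -0.32 ± 0.14 against WT (adjusted p = 0.6216, limma) and -0.21 ± 0.14 against HZ (adjusted p = 0.7838). Of its other probe sets, one gave -0.64 ± 0.28 and a dim one gave -0.20 ± 0.28 in KO against WT. Psme1, part of the interferon-inducible cap, gave 792, 871 and 1198 on KO arrays, 766, 641 and 618 on HZ arrays, and 857, 707 and 857 on WT arrays. KO lay above HZ without overlap, by 0.47 ± 0.18 (adjusted p = 0.577), and WT spanned the gap, at 0.22 ± 0.18 in KO and -0.25 ± 0.18 in HZ. Without KO 3 the difference between KO and HZ was 0.30. Its partner Psme2 shares a probe set with a second symbol and is no member. Psme3, the nuclear homologue, overlapped between KO and WT, with a difference of -0.14 ± 0.16.

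The inhibitor Psmf1 gave 505, 455 and 478 on KO arrays, 486, 513 and 429 on HZ arrays, and 462, 702 and 409 on WT arrays, without separation of any genotype. The 7 assembly chaperones build the rings and the ATPase base and leave the finished particle. By their brightest probe sets all lay below 0 in KO against WT, from -0.34 to -0.06, and 5 of 7 did in HZ. A second Psmd9 probe set lay at 0.11 ± 0.18 in KO and 0.19 ± 0.18 in HZ against WT. The second of Psmg2 lay at -0.04 ± 0.24 and -0.33 ± 0.24. None passed an unadjusted p of 0.05. Psmg1, which starts the alpha ring, gave 602, 631 and 798 on KO arrays, 817, 714 and 750.0 on HZ arrays, and 912, 798 and 857 on WT arrays. KO overlapped WT by the single value of 798, at -0.34 ± 0.16 (adjusted p = 0.623, limma). Psmd10, known as gankyrin, gave 197, 222 and 233 on KO arrays, 322, 209 and 259 on HZ arrays, and 311, 216 and 226 on WT arrays, with overlap and a KO minus HZ difference of -0.24 ± 0.20. The brightest probe sets of the other chaperones, Psmg2, Psmg3, Psmg4, Psmd5 and Psmd9, lay between -0.21 and -0.06 in KO against WT, with overlapping arrays. Psmc3ip and Psme3ip1, the genes that are no subunits, lay at 0.22 ± 0.35 and 0.03 ± 0.15.

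Core and regulatory particles could not be separated by genotype. In KO against WT the median log2 difference was -0.14 over the 14 core subunits (-0.16 to -0.06 with single arrays left out) and -0.04 over the 17 regulatory subunits (-0.12 to -0.03), with 10 of 14 and 12 of 17 below 0. In HZ against WT it was -0.09 and -0.15, with 14 of 14 and 13 of 17 below 0. With single arrays left out these HZ medians ran from -0.13 to -0.04 in the core and from -0.20 to -0.04 in the regulatory particle, and without HZ 2 both were at -0.04. In KO against HZ it was 0.02 and -0.01, with signs that turned with single arrays left out (-0.09 to 0.09 in the core and -0.05 to 0.09 in the regulatory particle). The core minus regulatory difference was -0.10, 0.06 and 0.03 in these comparisons, and each changed sign with some single array left out. On single arrays it ran from -0.21 to 0.10 in KO, -0.02 to 0.08 in HZ and -0.04 to 0.11 in WT. Its within-genotype SD between single arrays was 0.106, which is not the error of a difference between genotypes. These differences were not tested. The 95% interval of a single gene reached a median of 0.32 to either side in the core and 0.38 in the regulatory particle, before any adjustment for multiple tests. With the mean of all probe sets of a gene in place of the brightest, the core minus regulatory difference in KO against WT was 0.02.

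On single arrays, the core median, as a deviation from the mean of all 9 arrays, was -0.16, -0.06 and 0.13 on KO arrays, 0.08, -0.19 and 0.02 on HZ arrays, and 0.14, 0.09 and 0.02 on WT arrays. WT arrays were all above 0, and KO 3, HZ 1 and HZ 3 lay within their range. The regulatory median was 0.05, -0.16 and 0.14 on KO arrays, 0.10, -0.18 and -0.06 on HZ arrays, and 0.09, -0.02 and 0.06 on WT arrays, again with overlap. HZ 2, the array with the highest 3'/5' ratio, had the lowest core and the lowest regulatory median. Over the 9 arrays the core and regulatory medians correlated at r = 0.65 (Spearman's rho = 0.70), and the 3'/5' ratio correlated at r = -0.56 with the core (rho = -0.28) and at r = -0.60 with the regulatory particle (rho = -0.38). Without HZ 2 and HZ 3, the arrays farthest from the median ratio, r was -0.21 with the core and -0.55 with the regulatory particle. With that ratio added to the model, the core medians were -0.09 in KO and in HZ against WT, and the regulatory medians were -0.03 in KO and -0.13 in HZ. The correlations describe these arrays only, which share their processing and scaling.

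**Figure D3:**
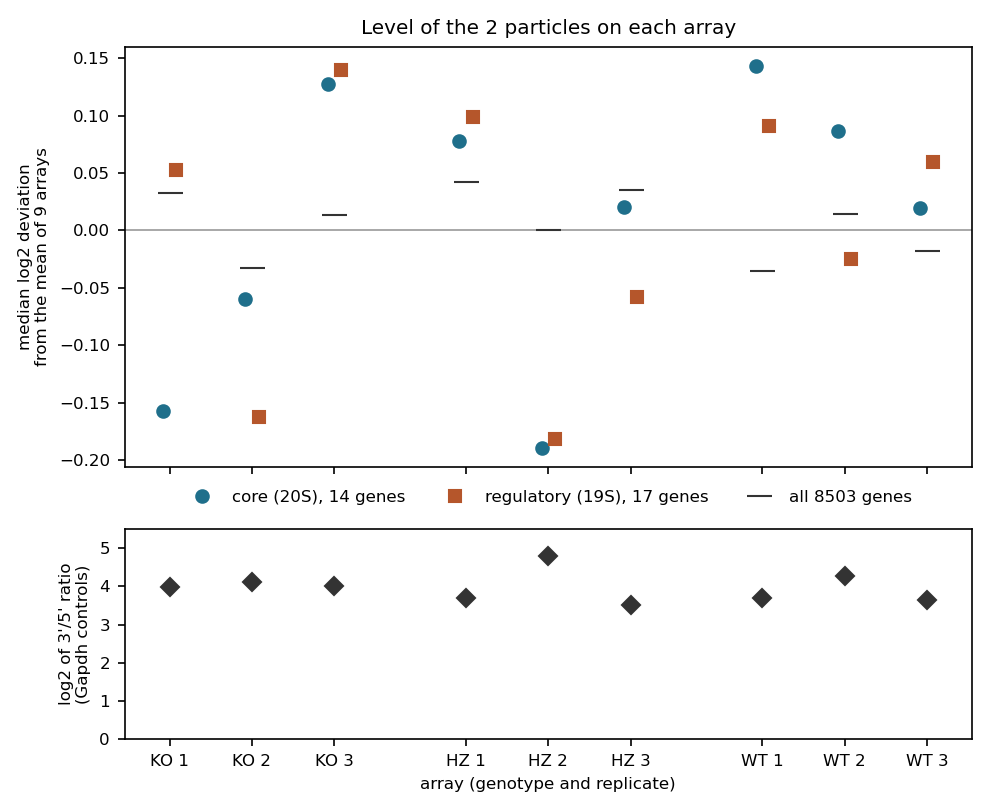
The upper panel shows the median log2 deviation of the 14 core subunits (circles), the 17 regulatory subunits (squares) and all genes kept (dashes) on each array from the mean of the 9 arrays. The lower panel shows the log2 3'/5' ratio of the Gapdh control probe sets on the same arrays, where HZ 2 has the highest ratio, 4.80, beside the lowest core and regulatory medians, -0.19 and -0.18.

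Subunits varied together only weakly once genotype means were removed. Over the 9 arrays, the median correlation was 0.29 between 91 pairs of core subunits, 0.20 between 136 pairs of regulatory subunits and 0.26 between 238 core-regulatory pairs, against 0.04 between these subunits and all other genes kept. Psmb5 followed its particle most closely, with a median correlation of 0.65 with the other core subunits, followed by Psmb4 at 0.62 and Psmb1 at 0.59. Psmd1 at 0.54 and Psmd2 at 0.49 led the regulatory particle. Psma3 at -0.40 and Psmc4 at -0.49 ran against theirs. Psmc4 also had the highest correlation with the 3'/5' ratio, 0.82, and Psmb2 the lowest, -0.85. These values belong to the brightest probe set of each gene. The 2 kept probe sets of Psmc4 correlated with each other at -0.83, so its behaviour here is that of 1 probe set. These are descriptions of 9 arrays that share scaling and amplification.

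Probe sets of the same gene often disagreed, which bounds what a single probe set shows. Of 17 genes with more than 1 probe set kept, the signs of the KO minus WT estimates agreed for 9 and differed for 8, those of HZ minus WT agreed for 12 and differed for 5, and those of KO minus HZ agreed for 8 and differed for 9. Psmb4 is the clearest case. Its brightest probe set lay at -0.24 in KO against WT, as given above, while the second gave 5059.5, 4358 and 4215 on KO arrays, 3865, 3363 and 3725 on HZ arrays, and 3813, 4134 and 3823 on WT arrays. In that second probe set KO lay above HZ and WT without overlap. The difference was 0.31 ± 0.12 against HZ (limma, unadjusted p = 0.02486, adjusted p = 0.5897) and 0.21 ± 0.12 against WT. It is of the type whose probes can match other transcripts. For Psmb1, the other probe sets gave 0.03 ± 0.17 and 0.25 ± 0.23 in KO against WT, against -0.22 for the brightest. The 2 probe sets of Psmc2 gave 0.14 and -0.04, and those of Psmc4 gave 0.08 and -0.19. A dimmer Psmd11 probe set gave 1037, 873 and 874 on KO arrays against 761, 849 and 537 on WT arrays, without overlap, at 0.39 ± 0.18 (adjusted p = 0.633, limma), against 0.09 for the brightest.

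**Figure D4:**
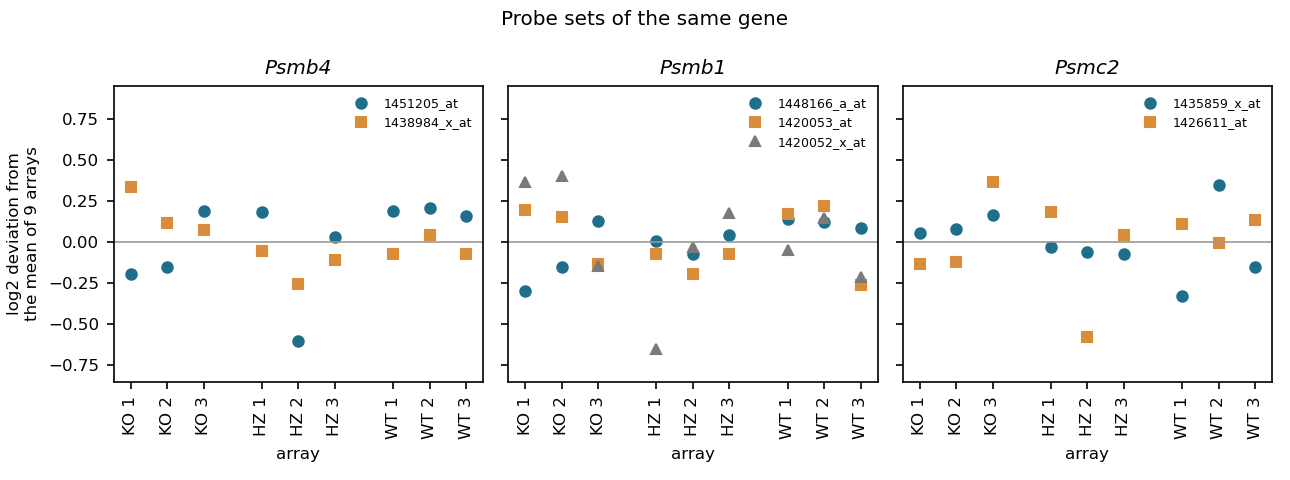
Log2 deviation from the mean of the 9 arrays for every kept probe set of Psmb4, Psmb1 and Psmc2, by array, with 1 symbol and colour per probe set. For Psmb4 the 2 probe sets go opposite ways on KO 1 and KO 2, as do the brightest and the other 2 of Psmb1.

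The wider ubiquitin pathway, from lists chosen with earlier results of these data known, gave 0 genes past the adjusted threshold in any comparison. In KO against WT, the lists of proteasome-associated proteins outside the rule (10 measured of 16), regulators of proteasome transcription (7 of 9), p97 complex proteins (12 of 14), COP9 signalosome subunits (9 of 9) and class I antigen presentation genes (8 of 12) had 0 members at an unadjusted p below 0.05, beside 4.41% of all genes higher and 3.75% lower. Of 25 ubiquitin-conjugating enzymes measured of 33, Ube2w alone was at that level, with 1034, 980 and 690 on KO arrays, 714, 787 and 715 on HZ arrays, and 709, 652 and 674 on WT arrays. KO 3 overlapped WT, and the difference was 0.38 ± 0.17 (adjusted p = 0.6176, limma). The medians ran from -0.10 in the COP9 signalosome, which trims Nedd8 from ubiquitin ligases, to 0.18 among the transcription regulators, beside 0.02 over all genes. Keap1, which holds the factor Nfe2l2 inactive, gave 1012, 577 and 758 on KO arrays, 903, 846 and 802 on HZ arrays, and 592, 504 and 720 on WT arrays. HZ lay above WT without overlap, by 0.49 ± 0.20 (adjusted p = 0.7895), and KO overlapped both. Mafg, a partner of Nfe2l1 and Nfe2l2 on DNA, gave 307, 259 and 286 on KO arrays, 461, 349 and 350.1 on HZ arrays, and 292, 170.0 and 262 on WT arrays. HZ again lay above WT without overlap, by 0.67 ± 0.21 (adjusted p = 0.7895, limma). These were the 2 of 7 transcription regulators at an unadjusted p below 0.05 in HZ against WT, beside 4.12% of all genes higher. Ube2j1, Cops7b and H2-K1, 1 each among the conjugating enzymes, the signalosome and the class I genes, were also higher in HZ at that level, by 0.40 ± 0.17, 0.56 ± 0.21 and 0.64 ± 0.24, and the lists of associated proteins and of the p97 complex had 0. In KO against HZ, 1 listed gene was at that level, the conjugating enzyme Ube2n, lower in KO, beside 4.08% of all genes lower. The genes of smallest p in the remaining lists also overlapped between KO and WT except Cops8, at 0.17 ± 0.13 on the log2 scale, whose KO arrays lay above WT. Ubqln4, a shuttle of ubiquitinated proteins, lay at 0.35 ± 0.21, Nploc4, a p97 cofactor, at 0.31 ± 0.19, and Pdia3, a chaperone of class I assembly, at -0.57 ± 0.39. Genes for ubiquitin itself and its activating enzyme were not analysed here.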

How the data were processed

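Expression Console (Affymetrix) and its MAS5 algorithm are the tools in the submitters' processing notes. The deposited intensities are linear, and the sources used here state no version or target. Leaving out 2% of probe sets at either end, array means were all 500.2, so the authors had scaled them. The platform annotation gave 20393 probe sets 1 symbol, 691 several and 1555 none. Controls were dropped, 16 was added before taking log2, and probe sets in the top 60% by mean log2 value stayed. R 4.3.3 and limma 3.58.1 fitted genotype to the 9 arrays, using eBayes with trend (residual and prior degrees of freedom 6 and 6.94). Tests were 2-sided, and Benjamini-Hochberg adjustment covered every kept probe set, at 0.05. The model was tested on simulated data. Named members were, per comparison, the 5 core, 5 regulatory and 3 other genes with the smallest p, plus the catalytic and inducible subunits and the gene of smallest p between KO and WT in each other pathway list; others were picked after their values were seen. Members and gene lists were chosen with earlier results of these data known.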

Additional observations from a re-analysis of the deposited data

How the results depend on the processing

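No member passed the adjusted threshold under any of 22 alternatives in any comparison, where the smallest adjusted p of a member ranged from 0.2814 to 0.9696 for KO against WT, from 0.3164 to 0.9229 for HZ against WT and from 0.3414 to 0.8522 for KO against HZ. The cause of the shifts below was not tested. The count of members at an unadjusted p below 0.05 in KO against WT, 2 as reported, was 4 with no filter on dim probe sets, 1 with quantile normalization, 5 with every array set to 1 median, 1 without the intensity trend, 4 with array weights, 1 with the 3'/5' ratio in the model, 1 with only the genotypes compared in the fit and 7 without HZ 2 and WT 2, and 0 to 6 when 1 array was left out. With the replicate number as a block it was 1. Same-numbered arrays correlated at -0.255 to 0.111, and 3 of 9 arrays were most like an array of their own number. The highest log2 3'/5' ratio of each genotype was on KO 2, HZ 2 and WT 2, at 4.11, 4.80 and 4.28. The labels give only a replicate number, and whether same-numbered arrays were processed together was not tested. In HZ against WT, 1 as reported, it was 4 with every array set to 1 median, 3 with array weights, 0 with the mean of a gene's probe sets, and 0 to 4 when 1 array was left out. In KO against HZ, 2 as reported, it was 4 without HZ 2 and WT 2 and 0 to 3 when 1 array was left out. The count of members below 0, recomputed after seeing the data, was 28 to 34 for KO against WT, 29 to 38 for HZ against WT and 14 to 31 for KO against HZ when 1 array was left out, and 24 for HZ against WT without HZ 2 and WT 2. The core minus regulatory median in KO against WT was 0.017 with the mean of a gene's probe sets and -0.098 to 0.029 when 1 array was left out, -0.013 to 0.094 in HZ against WT and -0.051 to 0.033 in KO against HZ. Of 857 values of named members 850 kept their sign, but many of these could not change. Dropping the intensity trend, changing the filter or adding the replicate block leaves a gene's log2 estimate as it was. So does fitting only the genotypes compared or leaving out an array of the third genotype. The count is therefore no measure of robustness. Psmb1 reversed with the mean of its probe sets, to 0.018 in KO against WT and 0.155 in KO against HZ. Psma4 in HZ against WT reached 0.0004555 without WT 1 (-0.47 to 0.0004555 over single arrays left out), and Gap43 reached 0.0897 there (-0.271 to 0.0897). Without HZ 2 and WT 2, Psmc3 and Psmb10 in HZ against WT were at 0.0451 and 0.0289 (-0.509 to -0.0205 and -0.302 to -0.0364 over single arrays left out), and Psmc1 in KO against HZ was at -0.0336, as it was without HZ 2 alone (-0.0336 to 0.351 over single arrays left out). Setting every array to 1 median moved the median of all genes from 0.02 to -0.04 in KO against WT and from 0.04 to -0.05 in HZ against WT. Dim probe sets, among them Psmc5, Psmd7 and Psmd10, and those that other transcripts can reach limit what single genes show.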
